A study of Mus musculus with 6 samples.

Results

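The genes described here are 10 mouse genes whose proteins are reported partners of MOAP1, or belong to the BCL2 family and death receptor pathway around it. MOAP1 is the protein that this series calls PNMA4, and its gene is named Moap1 in mouse gene tables. The members were taken from the deposited count table by their gene symbol, and all 10 symbols were found, each on 1 of the table's 57010 gene IDs. They are Bax, Bak1, Bid, Bcl2, Bcl2l1, Mtch2, Rassf1, Tnfrsf1a, Trim39 and Sqstm1.

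The RNA was not taken from whole testis. It was recovered from immunoprecipitates made with a PNMA4 antibody out of dense particle fractions (fractions 8 and 9 of an iodixanol density gradient) of testis lysates, each pooled from 8 testes of mice aged 3 months. The wild-type group holds 3 libraries, for which the labels' protocol names C57BL/6J mice. The control group, which lacks PNMA4, also holds 3 libraries. Replicates 1 and 2 are Pnma4 KO, and replicate 3 is the only double knockout (Pnma1, Pnma4 DKO) and was placed in this group by the submitters. No strain is given for the knockouts in the sources used here. Every library comes from an immunoprecipitation with the same antibody, so the controls show what is recovered when its target is absent. The controls also differ from wild type in genotype, and the input lysates' RNA was not analysed here. Recovery through PNMA4 and a changed RNA abundance in the knockout testis can therefore not be told apart. A level below is therefore an abundance in the precipitate. A smaller number of cells of a type and less RNA per cell cannot be told apart in such pooled lysates.

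As background, MOAP1 acts between death receptors at the cell surface and the outer membrane of mitochondria. When the TNF receptor is engaged, the RASSF1A protein binds MOAP1 and opens it, and MOAP1 then binds BAX, which forms pores that release cytochrome c. MOAP1 also helps MTCH2 to take up the cleaved form of BID at the mitochondrial surface, TRIM39 slows the breakdown of MOAP1, and MOAP1 takes part in the turnover of bodies formed by SQSTM1, the autophagy receptor p62. In the mouse testis, BAX is known for the wave of germ cell death in young males, and males without it are sterile. These are contacts between proteins. The counts here measure messenger RNA that came down with the antibody and do not measure those contacts.

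The libraries held 3138657 to 6367930 counts. Levels are given as CPM, counts relative to the library size after TMM scaling, which sets the bulk of genes equal between libraries. At this depth 1 count was worth 0.128 to 0.334 CPM. Without molecular identifiers a count is a read and not a molecule, and the Poisson intervals below cover counting error only. The labels were borne out by the deleted genes. Moap1 had 7, 26 and 27 counts in wild-type precipitates, against 0 in every library lacking PNMA4. Pnma1 had 0 counts in the double knockout and 76 to 152 in the other 5 libraries. The double knockout library stood apart from the others. The ribosomal RNA-related gene Rn18s-rs5 accounted for 57.5% of its counts against 27.3% to 36.1% elsewhere, and its TMM factor was 0.628 against 1.01 to 1.29. In it 12 Leydig cell markers added up to 493 CPM, against 198 to 258 CPM in the other 5 libraries. All of these markers except Star and Fdx1 were highest there. Log2 fold changes of the members, medians of gene lists and the pathway genes of lowest p are therefore also given without the double knockout library. Wild-type replicate 2 also differed, with the highest TMM factor and with Lars2 at 0.751% of its counts, against 4.34% to 10.8% in the others. Without this wild-type library the sign of Bak1 turned and Bid was not tested, as given below.

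No MOAP1 partner that could be tested passed the test of wild type against the libraries lacking PNMA4. Of the 10 members, 8 had enough counts to be tested, and Bax and Bcl2 did not. Of the 8 tested, 0 passed at an adjusted p of 0.05 in the quasi-likelihood test of edgeR, and 0 had an unadjusted p under 0.05. DESeq2 and limma-voom also called 0, with 1 member at an unadjusted p under 0.05 in limma-voom. In edgeR, 1 member, Mtch2, had such a p when wild-type replicate 3 or Pnma4 KO replicate 2 was left out. The background is low, since 8 of 13413 genes, or 0.0596%, were called (3 higher in wild type, 0.0224%, and 5 lower, 0.0373%). Among the 3 higher in wild type was Moap1 itself (log2 fold change 7.08), which is absent from the controls by genotype. Without the double knockout library 18 genes were called, again with 0 members among them. In the fit of all 6 libraries 4 members had positive and 4 had negative log2 fold changes (wild type over lacking PNMA4). Their median was 0.05, beside 0.01 over all genes tested, and leaving out the double knockout library gave −0.0037, leaving out wild-type replicate 2 gave −0.15.

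**Figure D1:**
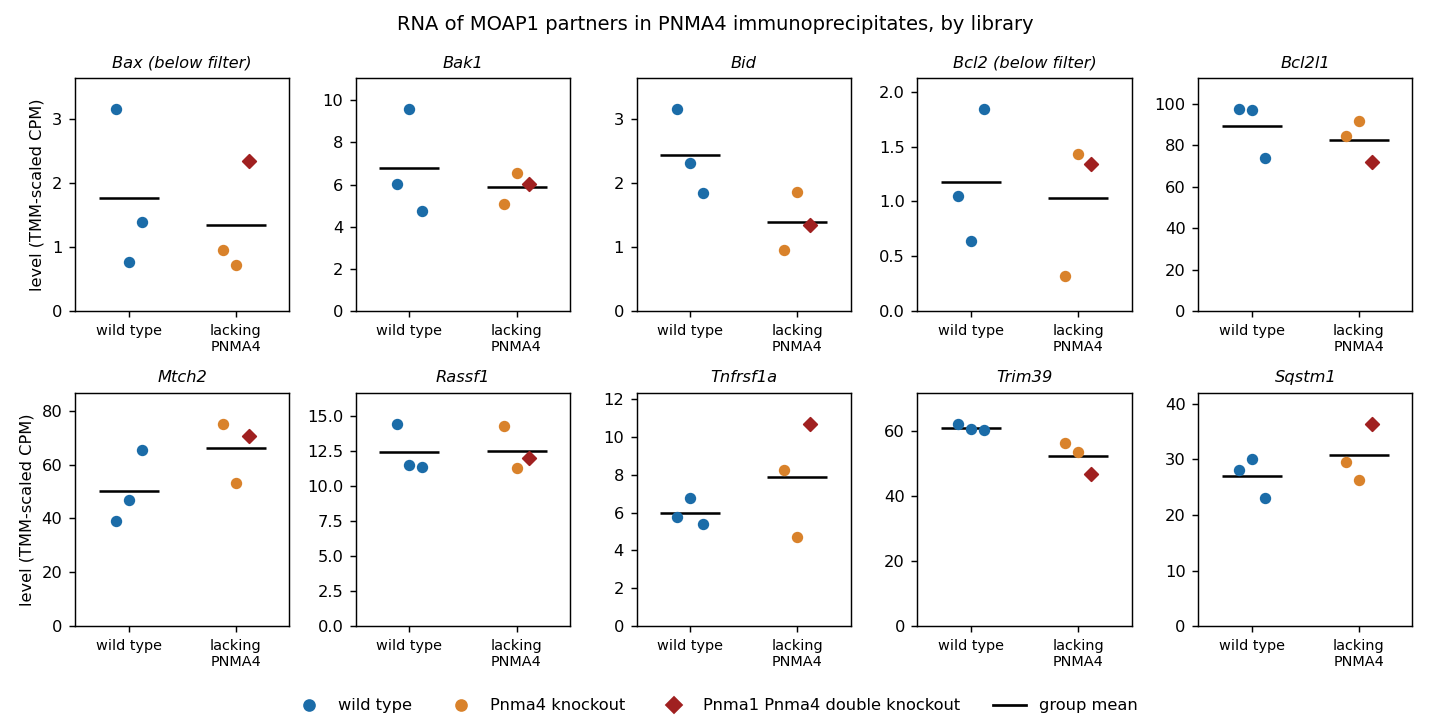
Level of each of the 10 members in each library (vertical axis, TMM-scaled CPM, starting at 0 and scaled for each gene), with wild type at the left and the libraries lacking PNMA4 at the right. Points are libraries, the diamond is the double knockout and bars are group means of 3 libraries. The groups overlap in 9 of the 10 panels, and in the panel of Trim39 the wild-type libraries at 60.4 to 62.3 CPM lie above the others at 46.8 to 56.5 CPM.

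The pore-forming effectors come first. BAX and BAK1 are the proteins that permeabilise the outer mitochondrial membrane once they are activated. Bax (ENSMUSG00000003873, chromosome 7 of GRCm38.p6, 45461695 to 45466903) had 12, 6 and 9 counts in wild-type precipitates, against 3, 5 and 7 without PNMA4. Its RNA was thus near the limit of what these libraries can measure, and the gene was below the filter on low counts. With the counts of each group pooled, Bax stood at 1.49 CPM in wild type (exact Poisson 95% interval 0.981 to 2.17) and 1.14 CPM without PNMA4 (0.639 to 1.88). The groups overlapped, and the highest values were 3.15 CPM in wild-type replicate 1 and 2.34 CPM in the double knockout. In a fit of all 34610 genes with any count, the log2 fold change of Bax was 0.41 (standard error 0.59, edgeR adjusted p = 0.925), and 0.97 (standard error 0.67) when the double knockout library was left out.

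Bak1 (ENSMUSG00000057789, chromosome 17, 27019812 to 27028627) had 23, 75 and 31 counts in the wild-type lysates, against 16, 46 and 18 counts without PNMA4. These came to 6.05, 9.59 and 4.76 CPM in wild type and to 5.08, 6.57 and 6.02 CPM in the controls. Wild-type replicate 2 was the highest library and wild-type replicate 3 the lowest, so all controls lay within the range of wild type. The fold change was 1.16 (95% interval 0.725 to 1.84, edgeR adjusted p = 1.00). Its sign rested on wild-type replicate 2, since the log2 value of 0.21 became −0.15 without that library. The span of Bak1 lies within that of Ggnbp1, which had 110 counts over the 6 libraries. Whether the authors' counting used strand is not given in the sources used here, so reads of the shared part are uncertain as to their gene.

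BID links death receptors to mitochondria, because caspase-8 cuts it into a fragment that activates BAX and BAK1. Bid (ENSMUSG00000004446, chromosome 6, 120893119 to 120917062) had 12, 18 and 12 counts in the wild-type lysates, against 3, 13 and 4 counts without PNMA4, which came to 3.15, 2.30 and 1.84 CPM in wild type and to 0.952, 1.86 and 1.34 CPM in the controls. Among the tested members Bid had the largest fold change, at 1.59, and the widest interval (0.812 to 3.12, edgeR adjusted p = 1.00). The groups met at 1 pair of libraries, wild-type replicate 3 at 1.84 CPM and Pnma4 KO replicate 2 at 1.86 CPM. The filter asks for about 10 counts in 3 libraries, which for Bid included all of wild type, so its place among the tested genes is not independent of its direction. It was no longer tested without wild-type replicate 2, without the Rn18s-rs5 and Lars2 genes in the table or with a stricter filter.

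BCL2 and BCL2L1 (BCL-XL) are the inhibitors of the effectors, which they hold inactive at the membrane. Bcl2 (ENSMUSG00000057329, chromosome 1, 106538176 to 106714290) had 4, 5 and 12 counts in the wild-type lysates, against 1, 10 and 4 counts without PNMA4. It was below the filter on low counts. Its pooled level was 1.16 CPM in wild type (exact Poisson 95% interval 0.717 to 1.77) and 1.14 CPM without PNMA4 (0.639 to 1.88), and the fit of all genes with any count gave a log2 fold change of 0.10 (standard error 0.63, edgeR adjusted p = 0.975), or 0.18 with the double knockout library left out.

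Bcl2l1 (ENSMUSG00000007659, chromosome 2, 152758732 to 152833803) was counted far more often, with 371, 758 and 481 counts in the wild-type libraries, against 266, 640 and 215 counts without PNMA4. These came to 97.5, 97.0 and 73.9 CPM in wild type and 84.4, 91.4 and 71.9 CPM in the controls. The double knockout was the lowest library and wild-type replicate 3 the next lowest, so the groups overlapped over most of their range. The fold change was 1.08 (95% interval 0.806 to 1.45, edgeR adjusted p = 1.00), an interval that leaves out a 2-fold difference in either direction. The span of Cox4i2 overlaps that of Bcl2l1, but Cox4i2 itself had 4 counts over all libraries.

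The ratio of an effector to its inhibitor needs no scaling between libraries, and that of Bax to Bcl2 was computed for each library with 0.5 added to both counts. On the log2 scale it was 1.47, 0.24 and −0.40 in wild type and 1.22, −0.93 and 0.74 without PNMA4. The means were 0.44 ± 0.95 in wild type and 0.34 ± 1.13 in the controls (SD, n = 3 each), a difference of 0.10 (two-sided exact permutation p = 0.9). With 3 against 3 libraries this test cannot go below 0.1. The SD within either group was larger than the difference, at counts of 1 to 12, and the difference turned negative without wild-type replicate 1 (−0.42) or without Pnma4 KO replicate 2 (−0.54). It was 0.29 without the double knockout library.

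MTCH2 sits in the outer mitochondrial membrane and receives the cleaved form of BID there. Mtch2 (ENSMUSG00000027282, chromosome 2, 90847090 to 90866810) had 148, 366 and 425 counts in the wild-type lysates, against 237, 371 and 211 counts without PNMA4. The levels were 38.9, 46.8 and 65.3 CPM in wild type and 75.2, 53.0 and 70.6 CPM in the controls. Wild-type replicates 1 and 2 were the lowest of the 6 libraries, while replicate 3 lay above Pnma4 KO replicate 2. Mtch2 had the lowest unadjusted p among the members, 0.0991, with a fold change of 0.766 (95% interval 0.557 to 1.06, edgeR adjusted p = 1.00). Its log2 fold change was −0.38, with −0.34 when the double knockout library was left out and −0.61 when wild-type replicate 3 was (edgeR adjusted p = 0.373). Mtch2 also had the largest ratio of observed to counting variation among the members. Its coefficient of variation over the 6 libraries was 24.5%, against 6.30% from counting alone.

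RASSF1 is the scaffold whose A form binds MOAP1 after death receptor signals. Rassf1 (ENSMUSG00000010067, chromosome 9, 107551434 to 107562267) had 55, 90 and 74 counts in the wild-type lysates, against 45, 79 and 36 counts without PNMA4. These came to 14.5, 11.5 and 11.4 CPM in wild type and to 14.3, 11.3 and 12.04 CPM in the controls. The groups covered nearly the same range. The fold change was 0.992 (95% interval 0.694 to 1.42, edgeR adjusted p = 1.00), the nearest to no difference among the tested members, and its sign turned in 6 of 15 other settings. Its variation over all 6 libraries, 11.8%, was below the 13.6% that counting alone gives. Counts are per gene, so the A form was not measured apart from the other forms of Rassf1. A lncRNA gene, Gm9917, overlaps its span and had 38 counts in all.

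TNFRSF1A is the TNF receptor at whose cytoplasmic part MOAP1 and RASSF1A meet. Tnfrsf1a (ENSMUSG00000030341, chromosome 6, 125349723 to 125362483) had 22, 53 and 35 counts in the wild-type lysates, against 26, 33 and 32 counts without PNMA4. In CPM these were 5.78, 6.78 and 5.38 in wild type and 8.25, 4.71 and 10.7 in the controls. The control group held both the lowest library, Pnma4 KO replicate 2, and the highest, the double knockout. The fold change was 0.797 (95% interval 0.498 to 1.28, edgeR adjusted p = 1.00), with a log2 value of −0.33 that was −0.04 without the double knockout library. In that same library Leydig cell markers summed to 493 CPM, 14 Sertoli cell markers to 431 CPM (215 to 302 CPM in the other 5) and 12 peritubular, vascular and stromal markers to 123 CPM (67.3 to 88.3 CPM). Clu alone supplied 190 CPM of the Sertoli cell sum there, and not all markers of these lists were highest in that library. None of these markers was at 0 in all libraries. Their part in the level of Tnfrsf1a was not tested.

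TRIM39 is a RING-type protein that keeps MOAP1 from being broken down. Trim39 (ENSMUSG00000045409, chromosome 17, 36258872 to 36272004) had 237, 473 and 393 counts in the wild-type lysates, against 178, 376 and 140 counts without PNMA4. The wild-type levels of 62.3, 60.5 and 60.4 CPM were close to each other and above the control levels of 56.5, 53.7 and 46.8 CPM. Trim39 was the only member whose groups did not overlap. Among all tested genes 898, or 6.69%, had groups that do not overlap, so 1 of 8 tested members is no result about the members as a group. The fold change was 1.16 (95% interval 0.877 to 1.55, edgeR adjusted p = 1.00), which did not pass. The separation was present with each of the 4 scalings tried, and with upper-quartile scaling Bid joined it. The log2 fold change of Trim39 was positive in all 15 other settings, from 0.15 without the double knockout library to 0.50 without scaling factors, a setting that moved the median of all genes to 0.31.

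SQSTM1 gathers ubiquitin-tagged cargo for autophagy and forms the bodies in whose turnover MOAP1 takes part. Sqstm1 (ENSMUSG00000015837, chromosome 11, 50200152 to 50210820) had 107, 235 and 150 counts in the wild-type lysates, against 93, 184 and 109 counts without PNMA4, or 28.1, 30.1 and 23.0 CPM in wild type and 29.5, 26.3 and 36.4 CPM in the controls. The double knockout was again the highest library, and the other 5 lay between 23.0 and 30.1 CPM. The fold change was 0.887 (95% interval 0.645 to 1.22, edgeR adjusted p = 1.00), and the log2 value of −0.17 was −0.04 without the double knockout library, whose marker sums are given above and whose markers' part in this level was not tested either.

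**Figure D2:**
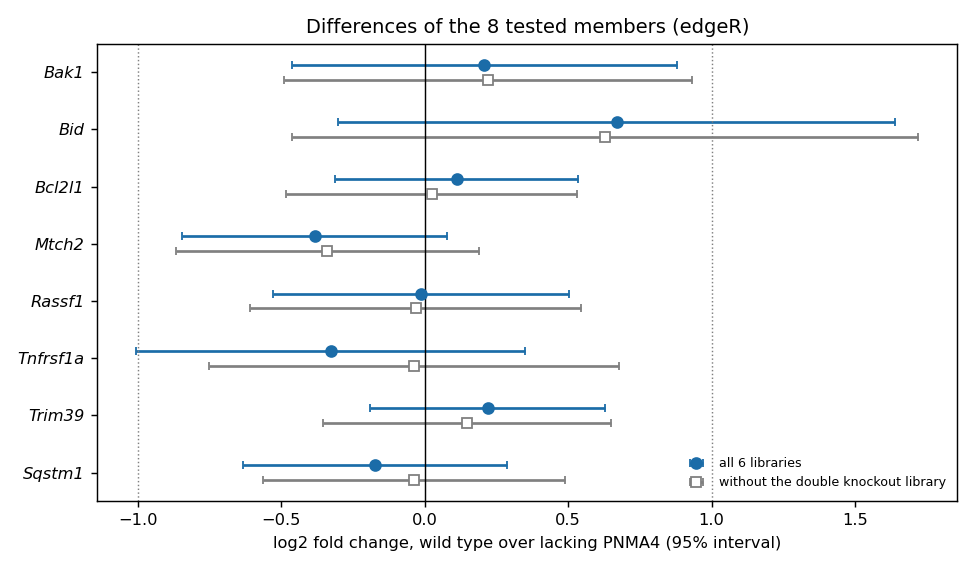
Log2 fold change of the 8 tested members, wild type over lacking PNMA4 (horizontal axis), with 95% intervals from edgeR. Filled circles use all 6 libraries and open squares leave out the double knockout library; dotted lines mark a 2-fold difference. Every interval includes 0, and with all libraries 6 of 8 lie between the dotted lines, the exceptions being Bid and Tnfrsf1a.

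The intervals set the size of difference that these data leave room for. For Bak1, Bcl2l1, Mtch2, Rassf1, Trim39 and Sqstm1 the 95% interval lay within 1 of 0 on the log2 scale, so it left out both a doubling and a halving, set against the bulk of genes. Over all tested genes this held for 71.1%. Bid (interval up to 1.64) and Tnfrsf1a (down to −1.01) left room for a 2-fold difference. For Tnfrsf1a this rested on the double knockout library, since its interval without that library ran from −0.75 to 0.68. In the fit without a filter the interval of Bax ran from −0.75 to 1.58 and that of Bcl2 from −1.15 to 1.34, so both left room for a doubling in wild type and Bcl2 also for a halving. With the double knockout library left out of that fit, the interval ran from −0.35 to 2.30 for Bax and from −1.13 to 1.49 for Bcl2. Leaving out the double knockout library gave log2 fold changes of 0.22 for Bak1, 0.63 for Bid, 0.024 for Bcl2l1 and −0.03 for Rassf1, so these 4 members kept their signs. Smaller differences, up to 1.45-fold for Bcl2l1 and 1.55-fold for Trim39, remain inside the intervals of the best-measured members.

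After TMM scaling, the levels of the 10 members added up to similar sums in all libraries. They came to 260, 266 and 249 CPM in wild type and 275, 251 and 259 CPM without PNMA4, and 3 genes, Bcl2l1, Trim39 and Mtch2, supplied most of the counts. The group means were 259 ± 8.53 CPM in wild type and 262 ± 12.4 CPM in the controls (SD, n = 3 each). Unlike the summed Leydig cell markers, the sum in the double knockout was close to the mean of the other 5 libraries, 260 ± 10.8 CPM (SD, n = 5). This rests on the scaling. As a share of all counts, the members made up 0.0162% in the double knockout, against 0.0265% to 0.0340% in the other 5 libraries. Over the 28 pairs of tested members the Pearson correlation of log2 CPM across the 6 libraries had a median of 0.04 and was positive in 14 pairs. These points share libraries and scaling factors and are given as a description.

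The knockout libraries differ in genotype, and a fit with the 3 genotypes apart set the double knockout against the Pnma4 KO libraries. It rests on 1 library, assumed to vary like the others. Among the genes called in this fit is Pnma1 itself, which is deleted in the double knockout. Of the 8 tested members 0 passed, and 0 had an unadjusted p under 0.05, where 10 of 13413 genes, or 0.0746%, were called and 830, or 6.19%, had an unadjusted p under 0.05. Tnfrsf1a had the largest log2 value, 0.79 (standard error 0.47, edgeR adjusted p = 0.912), followed by Sqstm1 with 0.39 (standard error 0.34, adjusted p = 0.988). Bcl2l1 and Trim39 were at −0.29 and −0.23. Set against the mean of the other 5 libraries, the double knockout held 1.73 times as much Tnfrsf1a, 1.33 times as much Sqstm1 and 1.26 times as much Mtch2, and 0.809 and 0.798 times as much Bcl2l1 and Trim39. Without scaling factors the median of all genes in this contrast was −0.76 and 201 genes were called, among them 0 members.

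**Figure D3:**
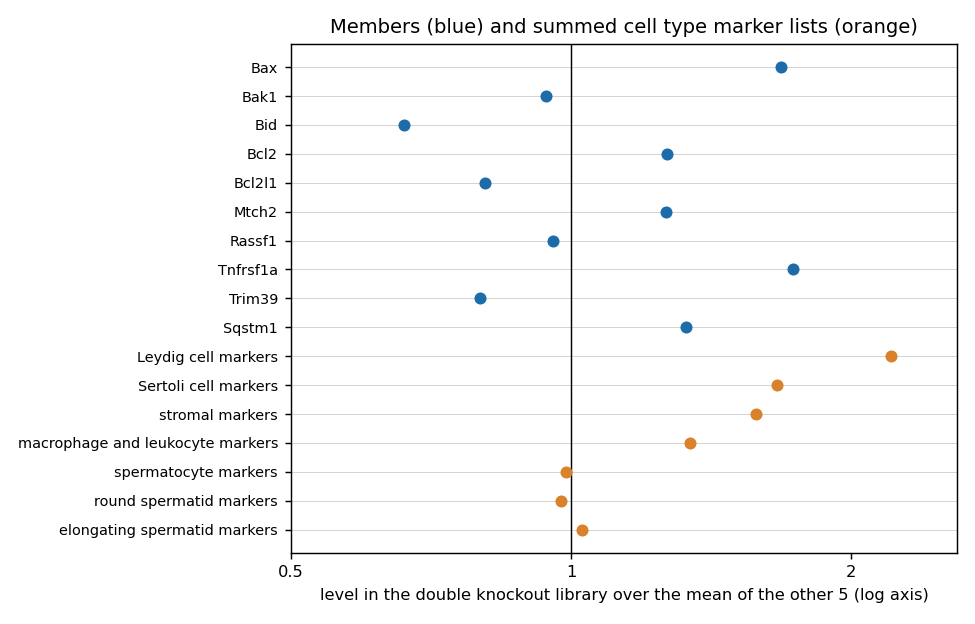
Level in the double knockout library divided by the mean of the other 5 libraries (horizontal axis, log scale), for the 10 members in blue and for the summed CPM of 7 cell type marker lists in orange. Members spread on both sides of 1, from 0.662 for Bid to 1.73 for Tnfrsf1a, while Leydig cell markers stand at 2.21 and the 3 lists of spermatocyte and spermatid markers at 0.977 to 1.03. Spermatogonia markers, at 1.20, and epididymis markers, at 2.09, are not shown.

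The pathways in which the partners work were described with 7 further lists of 137 genes, of which 115 had enough counts to be tested. Of these, 0 passed in edgeR, and 4 had an unadjusted p under 0.05, among them Mcl1, Atg2a and Mtch1, all 4 with negative log2 fold changes. Among all 13413 genes 392, or 2.92%, had such a p. The log2 fold change was positive for 47 and negative for 68 of the 115, where 52.0% of all genes tested were positive. The median was −0.06 beside 0.01 for all genes, and the split was not tested. Levels of single genes are means ± SD of 3 libraries in each group. Without the double knockout library 0 genes of any of these lists were called.

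Among other genes of the BCL2 family, 11 of 18 were tested, 8 with negative values, and the median was −0.24 (−0.12 without the double knockout library). Bcl2l10, a relative of BCL2 known from the ovary, had 0 counts in every library. Mcl1, an inhibitor like BCL-XL, stood at 46.9 ± 8.94 CPM in wild type, against 66.0 ± 14.4 CPM without PNMA4, or −0.50 ± 0.22 as log2 fold change and standard error (edgeR adjusted p = 1.00). Without the double knockout library it was at −0.47. Bcl2l14 lay at 82.6 ± 23.4 CPM in wild type and 79.8 ± 18.2 CPM in the controls.

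Of 17 death receptor genes and adaptors, 9 were tested and 7 had positive values, with a median of 0.10 (0.21 without the double knockout library). The receptor gene Fas had 1 count in wild type and 1 in the libraries lacking PNMA4, and was not tested. Birc2, a ubiquitin ligase of the TNF receptor complex, stood at 66.0 ± 24.0 CPM in wild type, against 81.6 ± 12.3 CPM without PNMA4, and Cflar, which blocks caspase-8, at 18.2 ± 8.36 CPM in wild type and 20.5 ± 5.67 CPM in the controls. Traf2, an adaptor of the same complex, had the lowest p of the list, with 11.5 ± 2.73 CPM in wild type and 7.93 ± 1.97 CPM in the controls, at 0.46 on the log2 scale (edgeR adjusted p = 1.00), or 0.34 without the double knockout library.

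Caspases, the apoptosome and their inhibitors gave 15 tested genes of 17, with 9 negative values and a median of −0.13, which was 0.03 without the double knockout library. Birc6, a giant inhibitor of apoptosis, lay at 194 ± 54.4 CPM in wild type and 178 ± 28.3 CPM in the controls, and Diablo, a mitochondrial protein that frees caspases from such inhibitors, at 27.8 ± 7.45 CPM in wild type and 31.2 ± 4.55 CPM in the controls.

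In the RASSF and MST kinase pathway 14 of 17 genes were tested, 7 of each sign, with a median of 0.004 (−0.016 without the double knockout library). Lats1, a kinase of the Hippo pathway, lay at 64.6 ± 13.7 CPM in wild type and 65.9 ± 4.39 CPM in the controls, and the kinase gene Stk4 (MST1) at 57.6 ± 3.97 CPM in wild type and 57.7 ± 6.47 CPM in the controls. Rassf3, a relative of Rassf1, had the lowest p, with 3.81 ± 0.439 CPM in wild type and 5.98 ± 1.27 CPM in the controls, at −0.61 on the log2 scale (edgeR adjusted p = 1.00), or −0.47 without the double knockout library.

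Autophagy genes, the setting of SQSTM1, gave 35 tested genes of 37, with 16 positive and 19 negative values and a median of −0.03 (−0.0013 without the double knockout library). Rb1cc1 (FIP200), a scaffold of the starting kinase complex, stood at 618 ± 148 CPM in wild type, against 557 ± 90.4 CPM without PNMA4. Nbr1, a receptor related to SQSTM1, lay at 474 ± 87.1 CPM in wild type and 457 ± 30.2 CPM in the controls. Atg2a, which moves lipid into growing autophagosome membranes, had 401, 1100 and 506 counts in the wild-type lysates, against 583, 1440 and 580 counts without PNMA4, or 108 ± 31.6 CPM in wild type and 195 ± 10.4 CPM in the controls. All 3 wild-type libraries lay below all controls. With an unadjusted p of 0.000728 and a log2 fold change of −0.85 (standard error 0.22) it was the lowest p of these lists, and it did not pass (edgeR adjusted p = 0.610). The log2 value was −0.85 without the double knockout library too.

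The anaphase-promoting complex and other factors of MOAP1 turnover, to which TRIM39 is tied, gave 18 tested genes, 12 with negative values, and a median of −0.08 (−0.02 without the double knockout library). Cdc27, a subunit of the complex, lay at 121 ± 25.1 CPM in wild type and 141 ± 15.2 CPM in the controls. Anapc16, another subunit, had the lowest p, with 5.34 ± 0.841 CPM in wild type and 6.99 ± 0.835 CPM in the controls, at −0.39 on the log2 scale (edgeR adjusted p = 1.00), or −0.36 without the double knockout library.

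Genes of the mitochondrial outer membrane gave 13 tested genes, 11 with negative values, and a median of −0.22 (−0.13 without the double knockout library). Mtch1, the paralog of Mtch2, had 30, 63 and 37 counts in the wild-type lysates, against 30, 67 and 46 counts without PNMA4, or 7.21 ± 1.32 CPM in wild type and 11.5 ± 3.37 CPM in the controls. Its log2 fold change of −0.65 came with a standard error of 0.29, and its edgeR adjusted p was 1.00, so both MTCH genes had lower means in wild type and neither passed. Without the double knockout library the controls averaged 9.55 CPM and the log2 value of Mtch1 was −0.41. The mitochondrial fusion gene Mfn2 lay at 300 ± 58.5 CPM in wild type and 282 ± 28.5 CPM in the controls, and the channel gene Vdac2 at 102 ± 11.4 CPM in wild type and 122 ± 20.2 CPM in the controls.

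**Figure D4:**
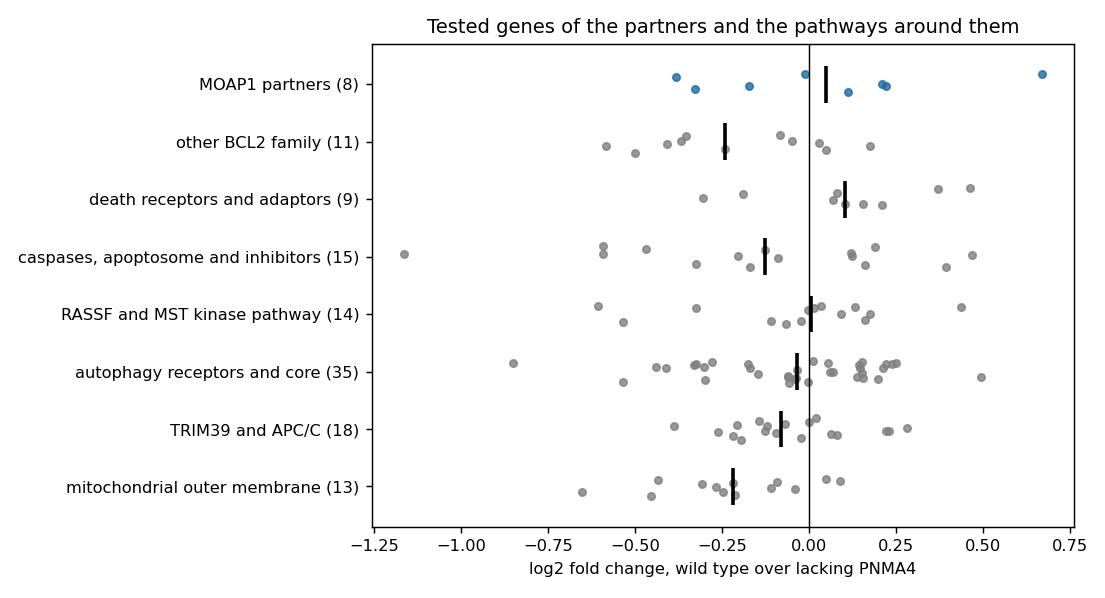
Log2 fold change, wild type over lacking PNMA4 (horizontal axis), of every tested gene of the MOAP1 partners (top row, blue) and of 7 surrounding lists (grey), with the number of genes tested in parentheses. Points are genes, spread vertically for visibility, and bars are medians, which run from −0.24 for the other BCL2 family genes to 0.10 for death receptors and adaptors; none of the genes shown passed the test.

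Bax was also used to look for genes with a like pattern over the 6 libraries. The tested genes with the highest Pearson correlation of log2 CPM with Bax were Fbxo9 (0.99), Kctd2 (0.98) and Ppp1r8 (0.98), and 71 genes exceeded 0.9. How many unrelated genes would exceed 0.9 over 6 libraries was not computed. The small count added before taking logs was scaled by total counts for Bax. For the other genes it followed the library size after TMM scaling, so the log2 CPM was not formed alike. Bax had 3 to 12 counts in each library, with a coefficient of variation of 63.8% observed and 40.8% from counting alone. The points share libraries and scaling factors, and the values are a description only.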

How the data were processed

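The authors deposited 1 table of raw counts per Ensembl gene ID, and no rescaling was needed before testing. Tools listed per the submitters' processing notes are STAR 2.5.2b, bcl2fastq 2.20, DESeq2 and featureCounts, with build GRCm38; for strand use and gene annotation the sources used here give nothing. Coordinates are RefSeq gene spans of GRCm38.p6, matched by symbol; transcript lengths were not used here, so CPM does not rank genes by abundance.

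Counts were tested over all genes with edgeR 4.0.16 in R 4.3.3 (quasi-likelihood F test, filterByExpr with a minimum count of 10 and total of 15, TMM, Benjamini-Hochberg at 0.05). Standard errors were derived from F and the log2 fold change. The 3 lysates per group are biological replicates per the labels. Members and lists were chosen with earlier results of these data known. Named genes were all members and, per pathway list, the 2 of highest mean CPM and the 1 of lowest p; 2 genes so named are not reported here but stay in the counts; marker lists are given as sums, and Fas, Bcl2l10 and overlapping genes were chosen after their values were seen. In 5 simulations with 200 of 13413 genes changed, the edgeR step recovered 90.8% of 4-fold and 41.6% of 2-fold changes. The simulated libraries shared 1 set of means, with no library that stood apart. They also held more changes than were called in the data, which makes the adjusted threshold easier to pass. These shares can therefore overstate what was recoverable for the members. The alternatives were DESeq2 1.42.0, limma-voom (limma 3.58.1), other scalings and filters, the table without Rn18s-rs5 and Lars2, a replicate block and each library left out; named genes and lists without the double knockout were added after seeing the data.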

Additional observations from a re-analysis of the deposited data

How the results depend on the processing

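No member passed the test in any of the 15 other settings (DESeq2, limma-voom, 3 other scalings, the table without Rn18s-rs5 and Lars2, 2 other filters, the replicate block and each library left out), and of 117 member values in them 108 kept their sign. The exceptions were among Rassf1, Sqstm1, Tnfrsf1a and Bak1. Without scaling factors Rassf1 was at 0.29, Sqstm1 at 0.18 and Tnfrsf1a at 0.044, since that setting moved the median of the tested members to 0.34, that of all genes to 0.31, and the log2 ratio of the summed member level to 0.29 (−0.02 with TMM). Rassf1 was also positive in limma-voom with quality weights (0.024) and without the filter (0.0015), and it ran from −0.13 to 0.087 over the fits with 1 library left out. With 1 library left out, Bak1 ran from −0.15 (without wild-type replicate 2) to 0.43, the median of the members from −0.15 to 0.14 and the Bax to Bcl2 difference from −0.54 to 0.54. The count of genes called over the whole table was 31 without the filter, 3 with the stricter filter (minimum count of 30), 7 with the replicate block and 8 to 18 with 1 library left out, the highest without the double knockout. The causes were not tested. With the replicate block the members' median was 0.05 and 0 members passed; same-numbered libraries of the groups deviated together with correlations of only 0.04, −0.06 and 0.08, so the numbers were not taken to pair them. Depth limits Bax, Bcl2 and Bid, at 1 to 18 counts per library.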

Other observations

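Markers of other cell types were read beside the members, as sums of TMM-scaled CPM. Germ cell lists were well covered in both groups, so the labelled tissue was recognisable. Spermatocyte markers summed to 1631 to 1994 CPM in wild type and 1495 to 1755 CPM without PNMA4, and elongating spermatid markers to 1683 to 2240 CPM in wild type and 1974 to 2252 CPM without it. Round spermatid markers summed to 452 to 562 CPM in wild type and 501 to 541 CPM in the controls, and spermatogonia markers to 339 to 437 CPM in wild type and 367 to 459 CPM in the controls. Macrophage and leukocyte markers were low, at 20.8 to 25.3 CPM in wild type and 23.4 to 32.8 CPM in the controls. Epididymis markers summed to 8.83 to 12.4 CPM in wild type and 14.6 to 29.1 CPM without PNMA4, and 4 of their 10 genes had 0 counts in every library. Crisp1 of that list was the single marker that passed (edgeR adjusted p = 0.00244, lower in wild type, and 0.00536 without the double knockout library), and it is no member of the pathways above.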
